A study of Mus musculus with 12 samples.

Results

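The genes described here encode the integrins, the cell's main receptors for extracellular matrix, and the laminins, the basement membrane proteins that several integrins bind. Members were taken by gene symbol, as every integrin alpha, integrin beta and laminin chain gene of the count table. They numbered 37 of 55421 genes: 18 integrin alpha genes, 8 integrin beta genes, and 11 laminin chain genes. Of the 36 described here, 34 passed the filter on low counts and were tested among 17376 genes. The other two, Lama1 and Itgad, are given by their counts.

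An integrin is a heterodimer of an alpha and a beta subunit that spans the plasma membrane, binds matrix outside the cell and couples to actin through talin, kindlin and vinculin inside it. A laminin is a cross-shaped trimer of an alpha, a beta and a gamma chain, and it anchors the basement membrane that wraps each cardiomyocyte and underlies the endothelium. In heart muscle the laminin receptor integrin alpha7beta1 and the dystroglycan complex link that membrane to the cytoskeleton, and the alphav integrins are known for releasing latent TGF-beta.

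RNA of ventricular tissue from wild-type mice was sequenced in 12 libraries, 4 for each of 3 groups. Mice of the saline group had neither agent, only saline with vehicle. Those of the AngII group carried a subcutaneous minipump with angiotensin II (Ang II), a pressor peptide used to produce cardiac hypertrophy, from day 0, and received vehicle. The AngII_FI group carried the same pump and was given Forsythoside I (FI), a plant phenylethanoid glycoside, injected into the peritoneum on alternate days, at 50 mg/kg, starting the day before the pump and ending on day 14. No group analysed here received FI without Ang II, so the comparison of AngII_FI with AngII is the only one that isolates the compound. Age and sex are not stated in the sources used here, and each library is taken as 1 mouse.

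The libraries held 68874852 to 80624227 counts, and the 37 members together took 1055 to 1354 CPM (a gene's counts scaled to the library total) of each. At these depths a count of 3, used as the floor, equals 0.0372 to 0.0436 CPM, which covers counting error only. Cardiomyocyte markers summed to 35273 to 49222 CPM in the saline libraries, which fits the labelled tissue. Hepatocyte markers, genes known from liver, summed to 27.6 to 44.1 CPM in 10 libraries, to 112 CPM in AngII library 3 and to 31461 CPM in AngII_FI library 3. AngII_FI library 3 therefore holds liver RNA. Comparisons between groups were also fitted without it, and those values are given where stated. Levels per kilobase, group means in CPM and marker sums include it. In tissue RNA, fewer cells of a type and less RNA per cell cannot be told apart.

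Promoter sequences of 23 of the 36 genes described were matched by symbol in the RefSeq table (GRCm38.p6). Shown here, as the 250 bases before the start site read 5′ to 3′ on the gene's strand, are those of Itga5, the integrin alpha gene that rose with Ang II, of Itgb5 and Itgb1, the most abundant beta genes, which did not pass the test, and of Itga1, which was lower in every AngII_FI library than in any AngII library. They lie at chr15:103366792-103367041 (minus strand), chr16:33829415-33829664 (plus), chr8:128685404-128685653 (plus) and chr13:115101965-115102214 (minus). Capitals mark matches on either strand to the GC box GGGCGG or to the TEAD site GGAATG.
Itga5: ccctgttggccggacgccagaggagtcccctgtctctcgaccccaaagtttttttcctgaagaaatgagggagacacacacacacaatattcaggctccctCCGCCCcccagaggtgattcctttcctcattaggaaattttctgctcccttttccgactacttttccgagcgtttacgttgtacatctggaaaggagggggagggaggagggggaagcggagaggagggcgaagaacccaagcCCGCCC
Itgb5: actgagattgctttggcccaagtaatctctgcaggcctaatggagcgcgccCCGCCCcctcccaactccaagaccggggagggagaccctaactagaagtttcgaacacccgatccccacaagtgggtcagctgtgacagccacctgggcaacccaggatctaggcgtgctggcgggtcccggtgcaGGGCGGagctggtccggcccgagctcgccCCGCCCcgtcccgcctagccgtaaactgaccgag
Itgb1: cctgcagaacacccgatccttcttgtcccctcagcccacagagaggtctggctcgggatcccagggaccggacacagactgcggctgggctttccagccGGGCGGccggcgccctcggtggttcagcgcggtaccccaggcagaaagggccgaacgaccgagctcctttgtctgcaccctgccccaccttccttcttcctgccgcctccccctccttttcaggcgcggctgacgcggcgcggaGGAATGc
Itga1: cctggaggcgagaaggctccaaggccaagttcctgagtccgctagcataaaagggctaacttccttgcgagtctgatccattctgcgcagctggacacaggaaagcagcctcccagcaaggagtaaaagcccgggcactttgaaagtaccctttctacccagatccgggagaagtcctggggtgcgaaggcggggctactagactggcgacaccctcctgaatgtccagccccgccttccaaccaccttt

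Itga5 held 2 GC boxes, 6 and 149 bases before the start, Itgb5 held 3 and Itgb1 held 1, whereas Itga1 held none. Itgb1 also held the TEAD letters 7 bases before its start. Over the 26 promoter stretches of the 23 genes, the GC box was present in 9, against 32.7% of all 32851 promoters of that length in the table. The TEAD site was present in 3 (12.6% of all promoters), and the AP-1 site TGANTCA in 1, that of Itgax (6.75% of all). The CArG box, bound by serum response factor, was present in 2, those of Lama2 and of Itgb6, each before a start inside the annotated gene (1.47% of all). These are matches of letters only.

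Levels differed between the genes by orders of magnitude, as read in CPM per kilobase of exon averaged over the 12 libraries. Itgb1, the beta subunit shared by most matrix-binding integrins, was highest at 55.3 CPM per kb and ranged from 49.3 to 73.9 between libraries. Lamb2, the laminin beta2 chain of mature muscle basement membrane, followed at 26.4 CPM per kb, with a range of 22.3 to 34.0. Itgb5, the beta partner of alphav, stood at 20.9 CPM per kb, and its range of 18.4 to 23.6 overlapped that of Lamb2.

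Lamc1, the gamma chain of nearly all basement membrane laminins, came next at 15.3 CPM per kb. The highest alpha subunit was Itga7, of the muscle laminin receptor, at 12.3 CPM per kb, and the ranges of these neighbours overlapped as well. Itga5, which pairs with beta1 as the fibronectin receptor, reached 8.61 CPM per kb and Lamb1 8.38 CPM per kb. With the longest basic transcript as the length, Itga7 stood at 24.9 CPM per kb, above Itgb5 at 22.6 and Lamc1 at 16.6, and Lamb1 at 14.4 passed Itga5 at 9.69, so the order of these 5 genes rests on the length used.

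The 3 laminin alpha chains with substantial levels were close together. Lama5 stood at 5.02 CPM per kb, Lama4 at 4.96 and Lama2 at 3.84, and their ranges overlapped. With the longest basic transcript as the length the order became Lama4, Lama2, Lama5, at 9.91, 6.53 and 5.02 CPM per kb, so the order of these chains rests on it too. Among alpha subunits outside the laminin and RGD binders, Itga9 reached 4.91 CPM per kb, Itga1, a collagen receptor subunit, 1.96, and Itgam, of the leukocyte integrin Mac-1, 0.719. Of the exonic length of Itgam, 68.7% is shared with another gene model on its strand, Gm49368, so its value is uncertain.

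**Figure D1:**
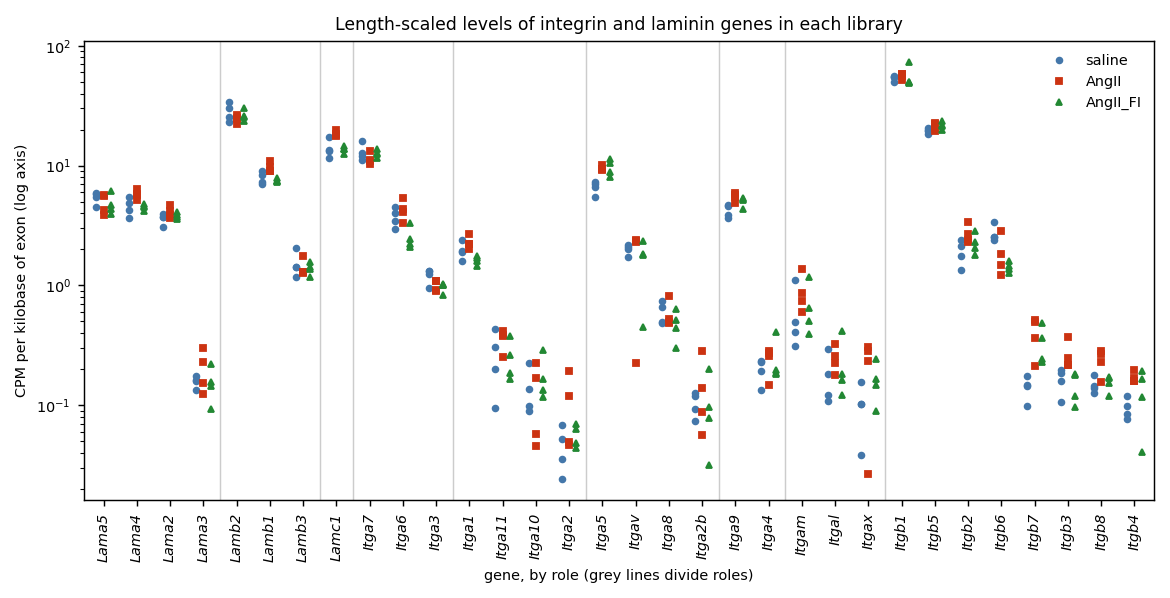
Level of each gene in CPM per kilobase of exon on a log axis, 1 symbol per library and 1 colour per group, with the genes ordered by role. The 32 genes with a count in every library are drawn, and Itgb1 lies at the top with a mean of 55.3.

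Lama1, the laminin alpha chain of embryonic and epithelial basement membranes, had no count in 10 libraries, 4 counts in AngII_FI library 2 and 32 counts in AngII_FI library 3, the library with liver RNA. Itgad, a leukocyte alpha subunit, had 0 to 19 counts. Itgae, the alphaE subunit of intraepithelial lymphocytes, and Lamc3 passed the filter at 0 to 23 and 0 to 24 counts.

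Infusion of Ang II raised 1 of the 34 tested genes, Itga5, and lowered 0 (edgeR's quasi-likelihood test, Benjamini-Hochberg adjusted p under 0.05 over all genes tested). Over all 17376 genes, 1.57% were called higher and 0.662% lower. Without AngII_FI library 3, which belongs to neither group but enters the shared estimate of spread, 3 members were called higher (Itga5, Itgb7 and Lamc1), against 2.49% higher and 1.37% lower over 17702 genes. At an unadjusted p under 0.05, 11 members were higher and 1, Itgb6, was lower (9.37% and 7.41% of all genes). In 7 members every AngII library lay above every saline library (7.74% of all genes), and in 0 below (4.56%). The fold change was above 0 in 25 of the 34 members (50.6% of all genes), with a median log2 fold change of 0.32, against 0.00 over all genes.

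FI given with Ang II left 0 of the 34 members called against AngII alone, in either direction (0.0% of all genes either way). DESeq2 also called 0 members, with 12 genes higher and 36 lower over the whole table, and without AngII_FI library 3 edgeR called 0 members and 1 gene in all, which was lower (0.00565%). At an unadjusted p under 0.05, 0 members were higher and 7 were lower, namely Itga1, Itga6, Itgb3, Itgb8, Lama4, Lamb1 and Lamc1 (5.46% and 4.49% of all genes). In 5 of these, all but Itga6 and Itgb8, every AngII_FI library lay below every AngII library (5.12% of all genes). Without AngII_FI library 3, Lama4 no longer passed that unadjusted threshold, and the other members named as lower still did. The share of all genes passing it in that fit was not counted, so no background is given for it. No member had every AngII_FI library above (0.858%). The fold change was below 0 in 23 of 34 members (46.9% of all genes) with a median of −0.21, against 0.02 over all genes.

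Against saline, the AngII_FI libraries had the same number called, 1 higher and 0 lower, and the gene was again Itga5 (0.719% of all genes higher, 0.259% lower). At an unadjusted p under 0.05, 4 members were higher (10.4% of all genes) and 2, Itga6 and Itgb6, were lower (6.92%). Leaving out AngII_FI library 3 gave the same gene (0.932% and 0.311%). The groups did not overlap for Itga5 and Itgb7, which were higher (3.52% of all genes), or for Itgb6, which was lower (6.06%). The 3 comparisons share groups of libraries, so their values for a gene are given side by side and are not independent of each other.

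**Figure D2:**
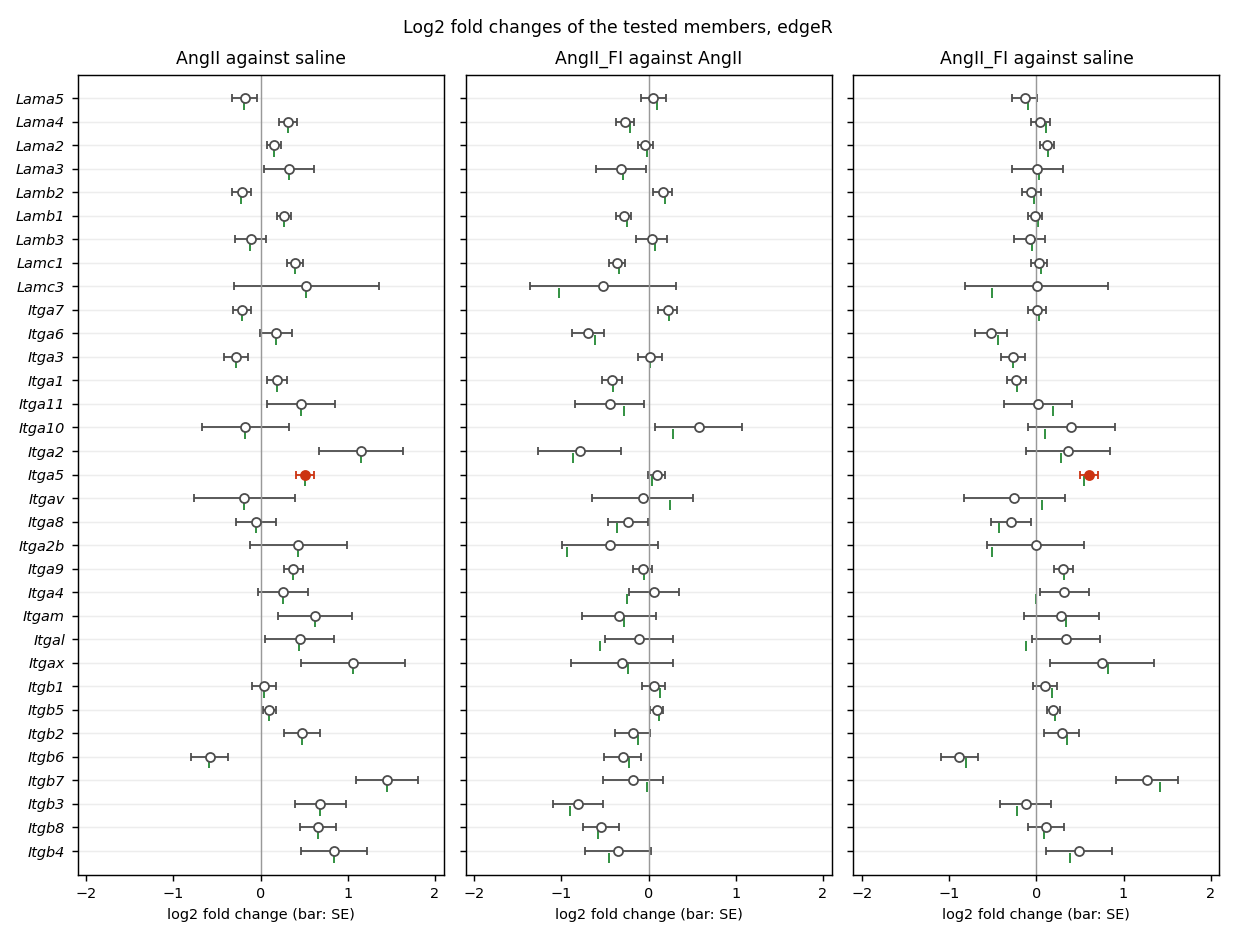
Log2 fold change with its standard error for 33 of the 34 tested members in each comparison, from edgeR. Filled red points passed an adjusted p of 0.05 (Itga5, in 2 comparisons), open points did not, green ticks give the value without AngII_FI library 3, and Itgae is left out because of its very wide error.

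For the gamma1 and beta1 chains, Lamc1 and Lamb1, the AngII libraries had the highest mean, without passing the test. Lamc1 was at 96.5, 109.9, 142.3 and 110.9 CPM in saline, 162.9, 149.2, 146.3 and 151.6 in AngII, and 114.5, 121.5, 114.2 and 102.9 in AngII_FI. Every AngII library lay above all 8 others, of which saline library 3 was nearest. AngII against saline gave a log2 fold change of 0.39 ± 0.09 (adjusted p = 0.0516) and AngII_FI against AngII one of −0.36 ± 0.09 (adjusted p = 0.411), neither past the threshold in edgeR's test. Lamc1 was called in AngII against saline without saline library 3 (0.49, adjusted p = 0.0191) and without AngII_FI library 3 (0.39, adjusted p = 0.0375). In AngII_FI against saline it was 0.03 ± 0.09 (adjusted p = 0.902).

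Lamb1 followed the same order at smaller size, with 72.8, 82.5, 88.9 and 70.0 CPM in saline, 107.7, 90.2, 88.9 and 96.7 in AngII, and 78.4, 73.0, 73.8 and 74.5 in AngII_FI. AngII library 3 and saline library 3 differed only beyond the third digit, and all 4 AngII_FI libraries lay below every AngII library. Changes of 0.27 ± 0.08 in AngII against saline and −0.29 ± 0.08 in AngII_FI against AngII, on the log2 scale, did not pass (adjusted p = 0.114 and 0.411, edgeR). DESeq2 called Lamb1 in AngII against saline (0.27, adjusted p = 0.0481). Lama4, the alpha chain of vessel walls and of the membrane around muscle cells, was at 43.8, 59.4, 66.5 and 51.5 CPM in saline, 77.1, 68.5, 62.3 and 70.2 in AngII, and 57.8, 54.9, 50.9 and 56.0 in AngII_FI. Here saline library 3 overlapped the AngII range, and the AngII_FI range lay within the saline range and below every AngII library. Its log2 fold changes were 0.31 ± 0.11 and −0.27 ± 0.11 (adjusted p = 0.151 and 0.452, edgeR), the latter −0.21 ± 0.10 without AngII_FI library 3.

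The other abundant chains overlapped between the groups and did not pass the test. Lama2, the alpha2 chain whose loss causes congenital muscular dystrophy, averaged 59.3 ± 6.39 (SD, n = 4) CPM in saline, 66.9 ± 7.49 in AngII and 62.2 ± 3.86 in AngII_FI. Lamb2 averaged 172.0 ± 30.1, 149.6 ± 11.2 and 159.4 ± 16.9 CPM, and Lama5 61.8 ± 7.51, 55.3 ± 10.4 and 54.4 ± 10.6 CPM, in the same order. In AngII against saline the log2 fold change was 0.16 ± 0.08 for Lama2, −0.22 ± 0.11 for Lamb2 and −0.18 ± 0.14 for Lama5 (adjusted p = 0.375, 0.346 and 0.593, edgeR).

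Lama3 and Lamb3, chains known from the basement membranes of epithelia, did not pass the test. Lama3 was at 1.44 to 1.87 CPM in saline, 1.34 to 3.22 in AngII and 1.01 to 2.35 in AngII_FI. Lamb3 was at 7.79 to 13.5, 8.45 to 11.5 and 7.82 to 10.4 CPM in the same order. Both genes overlapped across all groups, with log2 fold changes in AngII against saline of 0.33 ± 0.29 for Lama3 and −0.11 ± 0.18 for Lamb3 (adjusted p = 0.649 and 0.831, edgeR).

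**Figure D3:**
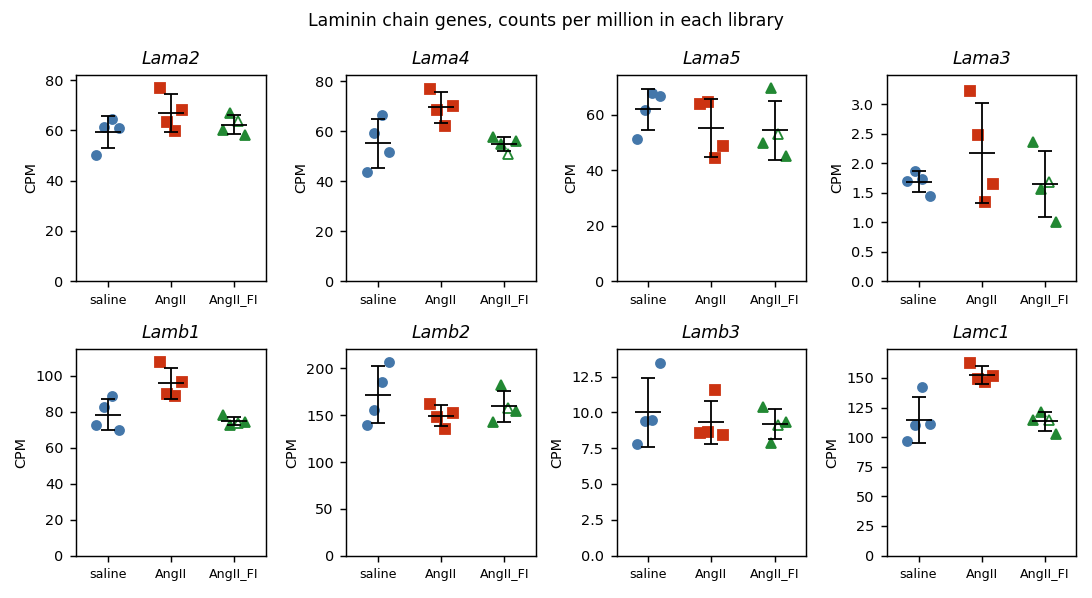
CPM of 8 laminin chain genes in each library, with the mean and SD of each group of 4 as bars and AngII_FI library 3 as an open triangle. Lamc1 and Lamb1 are highest in AngII, and the other genes overlap between groups or, for Lama4, separate AngII from AngII_FI alone.

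Of the integrin alpha genes, Itga5 was the 1 called. It was at 26.8, 32.9, 36.1 and 34.8 CPM in saline, 46.3, 46.3, 45.2 and 49.6 in AngII, and 43.8, 52.0, 56.3 and 39.4 in AngII_FI. All libraries with Ang II lay above all saline libraries, and the AngII_FI libraries spread to both sides of the AngII ones. The log2 fold change against saline was 0.51 ± 0.10 in AngII (adjusted p = 0.0293) and 0.60 ± 0.10 in AngII_FI (adjusted p = 0.0242), and that of AngII_FI against AngII was 0.09 ± 0.10 (adjusted p = 0.810), by edgeR's test. The AngII call was lost without any 1 of saline libraries 1, 2 and 4 and AngII libraries 2, 3 and 4 (0.44 to 0.53, adjusted p = 0.0618 to 0.0876), and without AngII library 3 and AngII_FI library 3 together (0.49, adjusted p = 0.0581). The AngII_FI call was lost without any 1 of saline libraries 1, 2 and 4 and AngII_FI library 1 (0.53 to 0.63, adjusted p = 0.0550 to 0.0689).

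Of the 3 alpha subunits that bind laminin itself, 0 passed the test in any comparison. Itga7, of which the muscle form sits at costameres, averaged 105.3 ± 17.8 CPM (SD, n = 4) in saline, 92.2 ± 10.1 in AngII and 102.2 ± 7.33 in AngII_FI, with overlapping ranges. Its log2 fold change was −0.21 ± 0.11 in AngII against saline (adjusted p = 0.350, edgeR). Itga6, whose product binds laminin with beta1 or beta4, was at 31.4, 36.1, 40.6 and 26.8 CPM in saline, 48.8, 37.1, 39.3 and 29.7 in AngII, and 29.9, 22.1, 19.9 and 18.7 in AngII_FI. The highest AngII_FI library just overlapped the lowest AngII library and the lowest saline library, and the other 3 lay below both groups. AngII_FI against AngII gave a log2 fold change of −0.70 ± 0.18 (adjusted p = 0.411, edgeR), and −0.62 ± 0.19 without AngII_FI library 3. Against saline it was −0.52 ± 0.18 (adjusted p = 0.175). Itga3, of the epithelial laminin receptor, was at 5.45 to 7.54, 5.15 to 6.19 and 4.71 to 5.88 CPM.

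Among collagen-binding subunits, Itga1 was lower in AngII_FI than in AngII in each library. It was at 36.4, 35.4, 44.9 and 30.0 CPM in saline, 50.0, 41.4, 37.2 and 41.3 in AngII, and 32.8, 27.0, 31.5 and 29.6 in AngII_FI. The AngII_FI range touched the saline range only through saline library 4. The log2 fold change of AngII_FI against AngII was −0.42 ± 0.11 (adjusted p = 0.411, edgeR) and −0.41 ± 0.12 without AngII_FI library 3. Itga11, the collagen receptor subunit of fibroblasts, was at 0.487 to 2.20 CPM in saline, 1.30 to 2.13 in AngII and 0.851 to 1.92 in AngII_FI. Its log2 fold change of 0.46 ± 0.39 in AngII against saline had an error nearly as large as itself (adjusted p = 0.635, edgeR).

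Itga9, a subunit that binds tenascin-C, was at 35.7, 27.9, 36.0 and 29.6 CPM in saline, 45.5, 37.6, 42.3 and 44.1 in AngII, and 33.4, 41.4, 40.2 and 39.7 in AngII_FI. The AngII libraries lay above all saline libraries, but the log2 fold change of 0.37 ± 0.11 did not pass in edgeR (adjusted p = 0.103), while DESeq2 called it (adjusted p = 0.0443). Itgam was at 1.57 to 5.63, 3.01 to 6.90 and 1.99 to 5.87 CPM, overlapping throughout. All 4 tested leukocyte alpha genes had a fold change above 0 in AngII against saline (50.6% of all genes), and 0 of them passed. Their median of 0.57 rests on Itgam (0.63 ± 0.43), with its shared exons, and on Itgae (0.51 ± 1.27), near the floor.

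Itgav, the alpha subunit of the TGF-beta-releasing integrins, separated 2 libraries from the rest rather than the groups. It was at 21.7, 22.5, 23.2 and 18.7 CPM in saline, 25.1, 25.7, 2.43 and 24.7 in AngII, and 25.3, 19.5, 4.87 and 19.1 in AngII_FI. The low values, 172 counts in AngII library 3 and 355 in AngII_FI library 3, came from the libraries in which hepatocyte markers were raised, and the part of that in the low values was not tested. Of 13051 genes with at least 1 CPM in the 10 other libraries, Itgav was the only 1 that fell under 0.5 times the lowest of them in both. With all libraries the log2 fold change in AngII against saline was −0.19 ± 0.58 (adjusted p = 0.929, edgeR), and without both it was 0.18 ± 0.12 (adjusted p = 0.515).

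Among the beta genes, Itgb7, which pairs with alpha4 or alphaE on lymphocytes, had the largest fold change of the group in AngII against saline, from a low level. It was at 0.487, 0.274, 0.401 and 0.410 CPM in saline, 1.38, 1.44, 0.592 and 1.00 in AngII, and 1.33, 0.679, 0.632 and 1.01 in AngII_FI. All libraries with Ang II lay above all saline libraries. The log2 fold change was 1.45 ± 0.36 in AngII (adjusted p = 0.0563) and 1.27 ± 0.35 in AngII_FI (adjusted p = 0.105), neither past the threshold in edgeR, and in AngII it passed without AngII_FI library 3 (1.45, adjusted p = 0.0389). T and NK cell markers summed to 2.70 to 8.78 CPM in saline and 4.33 to 7.13 in AngII, and 0 of 11 were called.

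Itgb6, the beta partner of alphav best known from epithelia, was the member with the lowest fold change in AngII_FI against saline. It was at 17.2, 18.1, 24.2 and 18.1 CPM in saline, 20.4, 10.6, 12.9 and 8.67 in AngII, and 9.73, 11.4, 9.03 and 10.2 in AngII_FI. The AngII_FI libraries lay below all saline libraries, while AngII library 1 stood within the saline range. On the log2 scale the fold change was −0.59 ± 0.21 in AngII (adjusted p = 0.177) and −0.88 ± 0.21 in AngII_FI against saline (adjusted p = 0.0709), by edgeR's test. Without AngII library 1 both passed in edgeR, at −0.84 (adjusted p = 0.0403) and −0.88 (adjusted p = 0.0325). That library enters the comparison of AngII_FI with saline only through the shared estimate of spread. Without AngII_FI library 3 the change in AngII_FI against saline was −0.81 ± 0.22 and did not pass (adjusted p = 0.103, edgeR).

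Itgb3, the partner of alphav and of the platelet subunit alphaIIb, was at 0.945, 1.15, 0.630 and 1.09 CPM in saline, 1.27, 2.21, 1.47 and 1.29 in AngII, and 0.573, 1.06, 1.07 and 0.708 in AngII_FI. Every AngII library lay above all other libraries. The log2 fold changes of 0.68 ± 0.29 in AngII against saline and −0.81 ± 0.29 in AngII_FI against AngII did not pass (adjusted p = 0.255 and 0.430, edgeR). Itgb8, another alphav partner, averaged 1.62 ± 0.240, 2.60 ± 0.631 and 1.70 ± 0.263 CPM (SD, n = 4) in saline, AngII and AngII_FI, and AngII library 4 overlapped both other groups.

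The most abundant beta genes did not pass the test. Itgb1 was at 229.9, 222.5, 222.2 and 205.4 CPM in saline, 229.1, 211.5, 236.6 and 239.0 in AngII, and 202.8, 301.4, 201.1 and 204.3 in AngII_FI. AngII_FI library 2 alone stood above the rest. The log2 fold change in AngII against saline was 0.04 ± 0.14 (adjusted p = 0.936, edgeR), and it changed sign, to −0.0058, without AngII library 3. Itgb5 averaged 69.7 ± 3.38, 75.6 ± 5.24 and 77.1 ± 5.51 CPM, with a log2 fold change of 0.10 ± 0.08 in AngII and 0.19 ± 0.08 in AngII_FI against saline (adjusted p = 0.583 and 0.214, edgeR). Itgb2, the beta subunit of the leukocyte integrins, was at 4.12 to 7.37, 7.04 to 10.3 and 5.52 to 8.72 CPM, and Itgb4 at 0.538 to 0.836, 1.11 to 1.39 and 0.283 to 1.36 CPM.

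**Figure D4:**
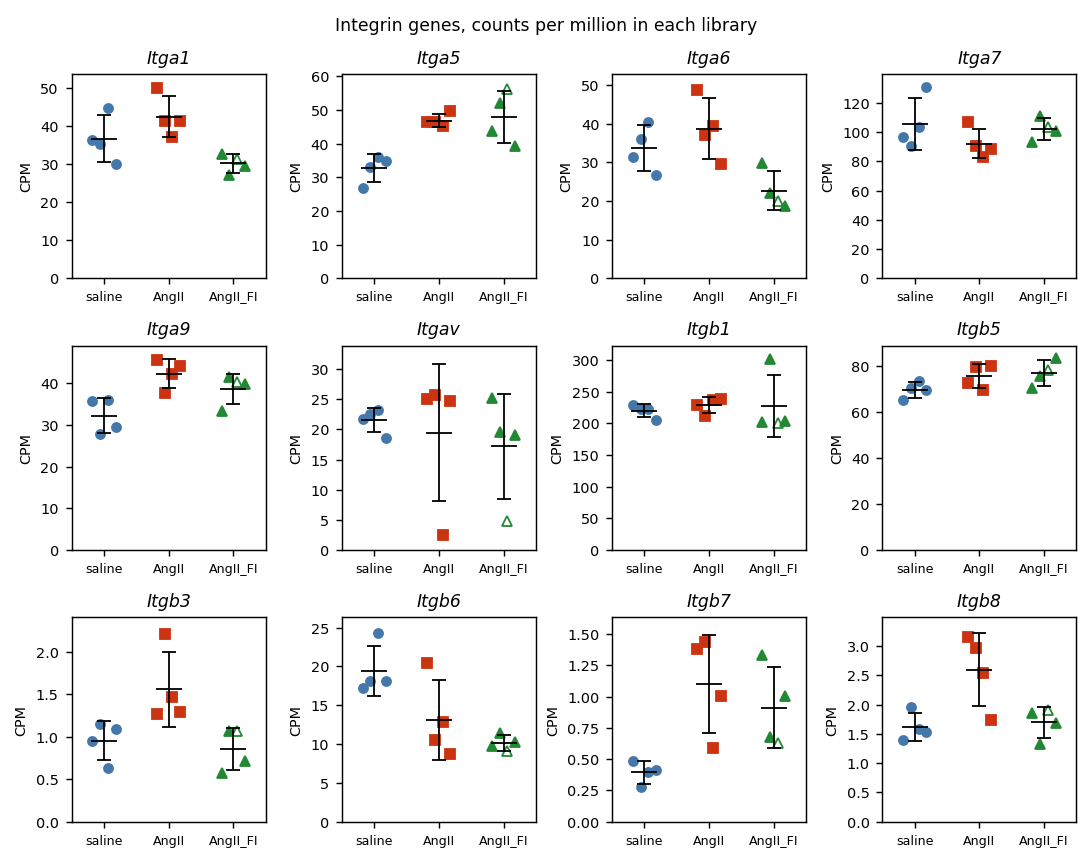
CPM of 12 integrin genes in each library, with the mean and SD of each group of 4 as bars and AngII_FI library 3 as an open triangle. Itga5 is higher in both groups with Ang II, Itga1 and Itga6 are lowest in AngII_FI, and Itgav is near the bottom of its axis in AngII library 3 and AngII_FI library 3.

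The proteins that laminins and integrins work with were read from lists of known partners, under the same test. Of 18 basement membrane partners of laminins, 5 rose with Ang II (Fbln2, Col4a1, Sparc, Col15a1 and Nid1) and 0 fell (1.57% and 0.662% of all genes), with a median log2 fold change of 0.49, against 0.00 over all genes. Col4a1, a chain of the collagen IV network, rose by 0.95 ± 0.15 on the log2 scale and Fbln2 (fibulin-2) by 0.72 ± 0.11 (adjusted p = 0.0121 for both, edgeR). Nid1, the nidogen that joins the laminin gamma1 chain to collagen IV, rose by 0.47 ± 0.11 (adjusted p = 0.0474). In AngII_FI against AngII 0 of the 18 passed, 17 had a fold change below 0 (46.9% of all genes), and the median was −0.39.

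Of 25 other matrix ligands of integrins, 13 rose with Ang II and 0 fell (1.57% and 0.662% of all genes), with a median of 0.73. Postn (periostin) rose by 1.798 ± 0.16, Ccn2 by 1.20 ± 0.11 and Col1a1 by 0.98 ± 0.10 on the log2 scale, with adjusted p = 0.000716, 0.000716 and 0.000858 in edgeR's test. In AngII_FI against AngII 0 passed, at a median of −0.41. Against saline 4 were called higher in AngII_FI (Postn, Ccn2, Tgfb3 and Col1a1), beside 0.719% of all genes. Of 34 tested adaptors and focal adhesion proteins, 1 rose with Ang II (1.57% of all genes), at a list median of 0.15. This was Lpp, a protein of adhesion plaques, which rose by 0.37 ± 0.08 (adjusted p = 0.0422, edgeR). Without AngII_FI library 3, 4 of these 34 rose (2.49% of all genes).

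In AngII_FI against saline 1 of the 34 rose (0.719% of all genes), Csrp3 (muscle LIM protein), by 0.70 ± 0.14 (adjusted p = 0.0455, edgeR). The count was 0 without AngII_FI library 3 (0.932% of all genes). Of 12 tested cell surface ligands, 1 rose with Ang II (1.57% of all genes), Adam15, a disintegrin, by 0.61 ± 0.13 (adjusted p = 0.0329, edgeR). The count was 2 without AngII_FI library 3 (2.49%). Of 18 non-integrin laminin receptors, dystroglycan (Dag1) and its complex among them, 0 passed in any comparison, with medians of −0.06 in AngII against saline and 0.08 in AngII_FI against AngII. Dag1 averaged 172.9 CPM in saline, 165.8 in AngII and 168.4 in AngII_FI. Differences between these lists were not tested.

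Marker genes of the cell types in the ventricle were read in the same comparisons. The 13 endothelial markers summed to 682 to 1067 CPM in saline, 946 to 1263 in AngII and 761 to 902 in AngII_FI, with 0 of 13 called. Their medians were 0.32 in AngII against saline and −0.32 in AngII_FI against AngII, where all 13 were below 0 (46.9% of all genes). The 12 macrophage markers summed to 362 to 482, 580 to 665 and 508 to 607 CPM. Of these, 5 of 12 rose with Ang II (1.57% of all genes). The 8 activated fibroblast markers summed to 152 to 261, 307 to 327 and 221 to 233 CPM, and 4 of 8 rose (1.57%). Of 11 resting fibroblast markers 4 rose, and of 12 pericyte and smooth muscle markers 1 did (1.57% of all genes for each). In AngII_FI against AngII, 11 of 12 macrophage, 8 of 8 activated fibroblast and 9 of 11 resting fibroblast markers were also below 0. So were 11 of 12 pericyte and smooth muscle markers, and 0 of all these were called. Without AngII_FI library 3, 9 of 12 macrophage, 8 of 8 activated fibroblast and 7 of 11 resting fibroblast markers were below 0. The same held for 9 of 12 pericyte and smooth muscle markers and for all 13 endothelial markers. The 12 cardiomyocyte markers had medians of −0.17 in AngII against saline and 0.14 in AngII_FI against AngII. Of the 12, 1 rose with Ang II (1.57% of all genes), and 1 was below 0 in AngII_FI against AngII (46.9% of all genes). The neutrophil marker Ly6g, the keratinocyte marker Krt14 and the adipocyte marker Lep were at 0 in all libraries, but their lists were not. The 9 neutrophil markers summed to 3.49 to 5.27 CPM in saline, 2.26 to 4.87 in AngII and 2.01 to 2.87 in AngII_FI. Sums of the 9 epithelial and mesothelial markers were 1.33 to 4.68, 2.93 to 4.82 and 2.11 to 148 CPM, the last in AngII_FI library 3. Those of the 7 adipocyte markers were 514 to 569, 660 to 862 and 568 to 790 CPM. The part of these cell types in the values of Lamc1, Lamb1, Lama4, Itga1, Itga6 and the other members was not tested.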

How the data were processed

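Ventricular RNA of 12 mice, 4 per group, was sequenced, and groups follow the treatment label of each sample. The authors deposited raw counts per gene, 1 column per library. The submitters' processing notes name HISAT, featureCounts 1.5.0-p3 and DESeq 1.8.3 as tools and GRCm38 as the genome build. No source used here states the strand setting, the handling of reads with several map positions or the release of the annotation, so overlapping genes are uncertain. Those on the same strand are Itgam, Itga10, Itgad and, over 3.68% of its exonic length, Itga1. RNA extraction is given as TRIzol in 1 field of the labels' protocols and as an RNeasy kit in another. The table also held 13 unnamed empty columns.

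Members were found by symbol. 1 of the 37 is not reported here and is left out of the counts of members, and lengths and overlaps came from the GENCODE annotation of GRCm38. CPM are a gene's counts scaled to all counts of the library, mitochondrial genes included (29.1% to 38.8% of counts). Genes were filtered with filterByExpr, scaled by TMM and tested with edgeR 4.0.16 (quasi-likelihood, R 4.3.3) in 1 fit of 12 libraries with 3 group means, with Benjamini-Hochberg adjustment over all 17376. The fitted common coefficient of biological variation was 0.343, and 0.269 without AngII_FI library 3. The labels give 4 mice per group but tie no library to an animal, so p-values measure the spread between these libraries. Means carry SDs and fold changes SEs. The code was tested on simulated data.

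The members, partner lists and marker lists were chosen with earlier results of these data known. By rule the text names members that passed in any comparison with or without AngII_FI library 3, the 5 smallest p of each comparison, the highest level per role, 11 fixed genes, and at most 3 called members of each partner list. The other members and partners named were chosen after their values were seen. Alternatives were DESeq2 1.42.0, RLE scaling, other filters, a replicate block, fits of only the groups compared, totals without mitochondrial genes and leaving out each library. Leaving out both libraries with raised hepatocyte markers, leaving out AngII_FI library 3 with the block or with DESeq2, and transcript lengths were added after seeing the data.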

Additional observations from a re-analysis of the deposited data

Results flagged for a closer look

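In 102 sets of 4 libraries (1 gene in 1 group), 8 had a library set apart from the other 3 by most of the range of the set, where chance gives about 1 in 20. Itgav was at 2.43 CPM in AngII library 3, against 24.7 to 25.7 CPM in the other AngII libraries. Itgb1 was at 301.4 CPM in AngII_FI library 2, against 201.1 to 204.3. Itga4 was at 5.68 CPM in AngII_FI library 3, the library with liver RNA, against 2.54 to 2.73. Lamb3 was at 11.5 CPM in AngII library 3, against 8.45 to 8.62. Itga8 was at 5.98 CPM in AngII library 1, against 3.59 to 3.88. Itgb6 was at 24.2 CPM in saline library 3, against 17.2 to 18.1. Itga3 was at 4.71 CPM in AngII_FI library 1, against 5.72 to 5.88. Itgae was at 0.329 CPM in saline library 1, and at 0 in the other saline libraries.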

How the results depend on the processing

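In AngII against saline, members called higher numbered 5 with DESeq2 (Itga5, Itga9, Itgb7, Lamb1 and Lamc1), 2 with RLE scaling (Itga5 and Lamc1), 3 with at least 1 CPM in 4 libraries, 1 without AngII library 3 and AngII_FI library 3 together (Itgb7, in place of Itga5), and 6 with DESeq2 and without AngII_FI library 3, where Lama4 was added and 1, Itgb6, was lower. They ranged from 0 to 3 over single libraries left out (lower 0 to 1), and 0 were called without any 1 of saline libraries 1, 2 and 4 or AngII libraries 2, 3 and 4. All genes called higher were 685 with DESeq2, 152 unfiltered and 871 with DESeq2 without AngII_FI library 3. Genes called lower were 431, 38 and 583 there, 185 at 1 CPM, 208 with only the groups compared and 66 without both hepatocyte-marked libraries. Leaving out 1 library gave 79 to 441 higher and 11 to 242 lower.

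In AngII_FI against AngII, 0 members were called under every alternative (0 to 0 with 1 library left out). Genes called over the table were 12 higher and 36 lower with DESeq2, 10 and 19 with DESeq2 without AngII_FI library 3, and 2 lower without both hepatocyte-marked libraries. Leaving out 1 library gave 0 to 1 in each direction.

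In AngII_FI against saline, members called higher were 2 with DESeq2, with and without AngII_FI library 3 (Itga5 and Itgb7), and 0 with only the groups compared. 1 member, Itgb6, was lower with DESeq2, with only the groups compared and with DESeq2 without AngII_FI library 3. Leaving out 1 library gave 0 to 1 higher and 0 to 1 lower. All genes called were 479 higher and 362 lower with DESeq2, 50 and 14 unfiltered, 35 and 13 with only the groups compared, 491 and 321 with DESeq2 without AngII_FI library 3, and 82 lower at 1 CPM. Leaving out 1 library gave 35 to 165 higher and 5 to 60 lower.

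Replicate numbers are shared between groups, but only 1 of 12 same-numbered pairs correlated over 0.1 (−0.0572 to 0.1045). That pair was AngII library 3 with AngII_FI library 3. The low values show no pairing by number throughout, but cannot exclude one. With the replicate block, members called higher were 0 in AngII and 1 in AngII_FI against saline. All genes called were 105 higher and 19 lower in AngII, and 51 and 10 in AngII_FI, against saline. With the block and without AngII_FI library 3, members called higher were 1 in AngII and 0 in AngII_FI against saline. Genes called there were 1 higher and 1 lower in AngII_FI against AngII and 20 lower in AngII_FI against saline. Genes called higher against saline stayed within 1.5 times the 273 (AngII) and 125 (AngII_FI) of the 12-library fit. With both, the log2 values of Itgav and Lamb1 in AngII_FI were 0.1784 (against AngII) and 0.0346 (against saline).

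Other changes of sign were in values near 0 relative to their error, and the cause was not tested. In AngII against saline, without both hepatocyte-marked libraries, Itgav was 0.1758 and Itgb1 −0.0095. In AngII_FI against AngII, Itgav was 0.2472 with DESeq2 without AngII_FI library 3. In AngII_FI against saline, Itgav was 0.0598 and Lamb1 0.0154 without both, and 0.0578 and 0.0130 with DESeq2 without AngII_FI library 3. Itga7 was −0.0012 unfiltered. With 1 library left out, values in AngII against saline ran from −0.35 to 0.18 for Itgav and −0.0058 to 0.088 for Itgb1. In AngII_FI against AngII they ran from −0.43 to 0.25 for Itgav, −0.12 to 0.14 for Itgb1, −0.081 to 0.0092 for Lama2 and −0.10 to 0.13 for Lama5. In AngII_FI against saline they ran from −0.26 to 0.36 for Itga11, −0.059 to 0.12 for Itga7, −0.13 to 0.79 for Itgam, −0.51 to 0.060 for Itgav and −0.079 to 0.17 for Itgb1. They ran from −0.29 to 0.016 for Itgb3, −0.032 to 0.13 for Lama4, −0.073 to 0.029 for Lamb1, −0.14 to 0.038 for Lamb2 and −0.021 to 0.13 for Lamc1. Totals without mitochondrial genes kept all counts of calls within 1.5 times, and RLE scaling did so but for the 2 members above. Depth limits the genes near the floor (Lama1, Itgad, Itgae and Lamc3).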
